A study of Drosophila melanogaster with 2 samples.

Results

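The 47 genes described here encode neuropeptides and peptide hormones of Drosophila melanogaster. The set was given by name and is not complete, and all 47 were found by symbol among the 13968 protein-coding genes of the 7 main chromosomes. For each gene, regions bound by the transcription factor dimmed (dimm) were sought in the annotated span and the 1 kb upstream of it. The regions came from chromatin immunoprecipitation followed by sequencing (ChIP-seq) of whole embryos of the strain dimm-GFP. These transgenic flies express dimm fused to enhanced green fluorescent protein (eGFP), and an anti-GFP antibody was used for the pull-down. All embryos were 0 to 24 hours old, their sex was not collected, and chromatin was broken by sonication to a labelled size range of 200 to 800. The series has 1 group of 2 biological replicates and no second condition, so counts are set beside those of other genes and between the replicates, and no test over samples was possible. Whole embryos mix all tissues, so binding in few cells and weak binding in many cannot be told apart.

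Dimm is a basic helix-loop-helix factor of neuroendocrine cells, where it is known to promote the large secretory apparatus that stores and releases peptides. Neuropeptides are made as prohormones, cut by convertases, often amidated at the end, packed into dense-core vesicles and released to act on receptors, most of them coupled to G proteins. Many of these genes are transcribed in small numbers of neurons or endocrine cells, some of which express dimm. Basic helix-loop-helix factors recognise E-boxes, DNA sites with the letters CANNTG, and CATATG is a form of E-box known to be bound by dimm.

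Each sequence below lies at the strongest region of 1 of 5 chosen genes, 3 with a region in the conservative peak list and 2 just outside it. ITP, which held the strongest region of the set, is not among them. They were read from the Release 6 genome (dm6 coordinates) in the direction of transcription of the gene, 5′ to 3′, with each E-box in capitals. Stretches of untranslated exon are limited to the E-boxes next to the summit. For amn the window is chrX:19889572-19889600 on the minus strand, inside the 5′ untranslated region, with E-boxes CATCTG and CAGATG at 16 and 25 bp from the summit. For Nplp2 it is chr3L:13356205-13356375 on the plus strand, directly upstream of the gene, and for Dh31 it is chr2L:8495269-8495469 on the minus strand, in an intron of Dh31 that holds a coding exon of Bace. The other two are CNMa, chr3L:1852140-1852240 on the minus strand, in a coding exon, and Ms, chr3R:24341379-24341550 on the plus strand, directly upstream of the gene.
amn: gcagtgaCATCTGttgCAGATGaaaagga
Nplp2: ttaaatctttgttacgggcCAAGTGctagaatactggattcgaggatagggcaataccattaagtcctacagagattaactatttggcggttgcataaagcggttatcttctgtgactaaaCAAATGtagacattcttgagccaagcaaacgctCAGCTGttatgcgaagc
Dh31: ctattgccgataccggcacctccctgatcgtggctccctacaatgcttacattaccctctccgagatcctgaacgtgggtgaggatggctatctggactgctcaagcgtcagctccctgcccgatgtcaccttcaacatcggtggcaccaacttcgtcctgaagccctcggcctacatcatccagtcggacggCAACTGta
CNMa: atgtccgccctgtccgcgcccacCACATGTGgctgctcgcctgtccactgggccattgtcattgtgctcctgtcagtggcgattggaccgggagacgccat
Ms: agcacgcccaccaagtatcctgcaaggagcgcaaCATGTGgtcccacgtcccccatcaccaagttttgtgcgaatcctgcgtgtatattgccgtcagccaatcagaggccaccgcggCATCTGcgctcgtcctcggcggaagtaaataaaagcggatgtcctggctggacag
The 3 E-boxes of the Nplp2 window are CAAGTG and CAAATG and CAGCTG, at 78 and 24 and 57 bp from the summit. The Dh31 window has 1, CAACTG, which lies 96 bp from the summit, and no other within 100 bp on either side. The CNMa window holds the overlapping pair CACATG and CATGTG at 26 and 28 bp, and the Ms window holds CATGTG at 63 bp and CATCTG at 20 bp. None of the 5 windows holds CATATG. Within 100 bp on either side of the summit, 59.3% of all 1739 conservative regions held a CANNTG and 7.3% held CATATG. E-boxes at such distances are thus common among the regions and do not set these genes apart. The absence of CATATG from 5 windows says little at that share. The windows also differ in length, and that of amn was limited to its E-boxes, so no share was computed over them.

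Of the 47 peptide genes, 4 had a summit in the conservative list, and 43 had none. The list keeps regions with a low irreproducible discovery rate (IDR), which measures how well the rank of a region repeats between 2 sets of peaks. The limit of 0.01 corresponds to 2 on the −log10 scale. The 4 genes are ITP, amn, Nplp2 and Dh31, a share of 8.51% (95% Wilson interval 3.36 to 19.9%, counting error only). Over all protein-coding genes the share was 11.2%, and over genes of like span length, those in the same of 10 classes of annotated length, it was 9.35%. The list not marked conservative held the same 4 genes. Only ITP and amn were also in each replicate's own thresholded list, which is 4.26% of the 47 against 8.21% of all genes in replicate 1, 7.8% in replicate 2 and 6.16% in both. At like span length the 3 shares were 6.84%, 6.48% and 5.10%. The peptide genes' shares lay below all of these backgrounds, but the counts of 4 and 2 were near them. At the shares of like span length, 4.39 of the 47 genes would have a conservative summit. It would be 3.21 in replicate 1, 3.05 in replicate 2 and 2.40 in both. The interval around 8.51% includes both 11.2% and 9.35%, and the interval around 4.26% (1.17 to 14.2%) includes all of its backgrounds. In the stronger 50% of the conservative regions, 2 of the 4 genes were left, ITP and amn. The files hold peaks and not reads, so depth is unknown, and no control library was used here.

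ITP (FBgn0035023, 2R, 24537421 to 24558961, plus strand) encodes the ion transport peptide, an antidiuretic hormone, and held the strongest region of the set. The region (2R, 24539267 to 24539570, dm6) had a signal of 197 and ranked 209 among the 1739 merged regions of the conservative list, whose median signal was 91.6. The signal is the authors' own peak value with no stated normalization, so it is compared here within a list. In the replicates' own ranked lists the overlapping candidates had 96.2 in replicate 1 and 103 in replicate 2, ranks 245 and 212. Both replicates placed it near the top of their 106765 (replicate 1) and 113898 (replicate 2) candidates. The summit lay in an intron of ITP, 522 bp from one of its transcription start sites (TSS), and also in an intron of CG4622, which runs the other way. A second ITP region (2R, 24540828 to 24541131), in a 5′ untranslated exon 1039 bp from the nearest ITP start, had a signal of only 62.8 and rank 1472. Its overlapping candidates had 27.5 in replicate 1 and 36.0 in replicate 2, and it was in neither replicate's own thresholded list.

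The gene amn (FBgn0086782, X, 19886108 to 19890060, minus strand), amnesiac, is known for a peptide needed for stable olfactory memory. Its region (X, 19889454 to 19889757) had a signal of 105 and rank 719, with 64.0 in replicate 1 and 43.6 in replicate 2, ranks 539 and 1088. The summit lay in the 5′ untranslated region, 454 bp from the amn start, and inside an intron of Hers on the other strand, whose nearest start was 2253 bp away. Both replicates thus had a thresholded region at the same place, with summits 0 and 1 bp from that of the conservative list.

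Nplp2 and Dh31 lay near the lower end of the conservative list and passed in neither replicate alone. Nplp2 (FBgn0287423, 3L, 13356376 to 13357223, plus strand) encodes a neuropeptide-like precursor. Its region (3L, 13356153 to 13356456) had its summit 71 bp upstream of the start and touched no other gene. The signal was 58.8 (rank 1582), with 30.6 in replicate 1 and 28.3 in replicate 2. Dh31 (FBgn0032048, 2L, 8491868 to 8506845, minus strand) encodes a calcitonin-like diuretic hormone. Its region (2L, 8495217 to 8495520) had a signal of 57.3 (rank 1624), with 26.2 in replicate 1 and 35.1 in replicate 2. It lay in a Dh31 intron 11476 bp from the nearest Dh31 start, and at the same time in a coding exon of Bace, an aspartyl protease gene whose start was 938 bp away. The assignment to Dh31 therefore rests on the span rule alone, and with summits counted only within 500 bp of a gene's own start Dh31 and ITP were both lost.

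**Figure D1:**
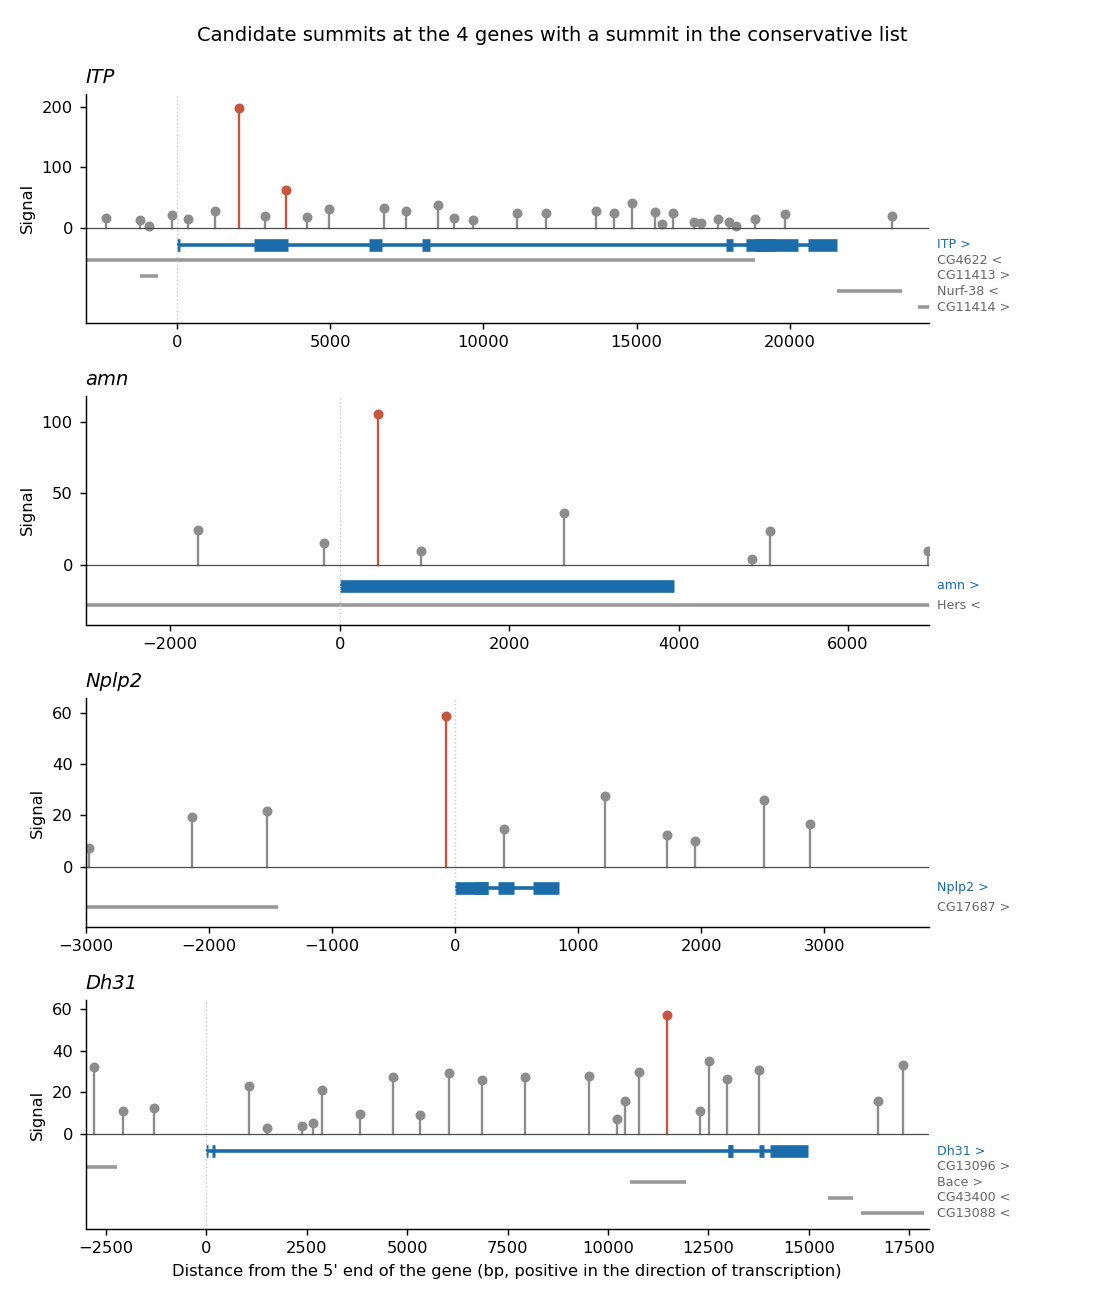
Candidate summits of the ranked list of both replicates at ITP, amn, Nplp2 and Dh31, by distance from the 5′ end of the gene in bp (x) and deposited signal (y, linear); red stems are in the conservative list and grey stems are not. Blue boxes and lines are exons and introns of the gene, grey bars are neighbouring or overlapping genes with > or < for the same or the opposite direction, and the red stem of ITP reaches 197 while most grey stems stay under 40.

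To place the other 43 genes, the strongest candidate of each gene was read from the ranked list behind the conservative list, which holds 139701 candidates of any quality on the main chromosomes. Of the 47 genes, 42 had at least 1 candidate. With genes without a candidate at 0, the median signal of the strongest candidate was 34.2 in the peptide genes, 28.0 at like span length and 30.5 over all protein-coding genes. A median at like span length, here and below, is the median over the genes in question of the medians of their length classes. Computed so over all protein-coding genes, it is 29.0. Of the 47, 30 (63.8%) were above the median of their length class, against 50% of all genes. In the top 10% of their length class were 4 (8.51%), against 10% of all genes, namely Ilp4, ITP, Nplp2 and amn. That count depended on the territory, and was 10 of 47 with the span alone and 8 of 47 with candidates nearest to a gene's own start. Those 2 counts lie above 10% of the 47, while 4 lies below it. In the 6 other alternatives the count was 4 to 6. The genes changed too. Ilp4 and Nplp2 were not among the 10, and with 5 kb upstream AstA took the place of Ilp4. On the IDR scale 4 strongest candidates reached a −log10 of 2, 3 more lay between 1 and 2 (CNMa, Ms and Ilp4), and 35 lay under 1.

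**Figure D2:**
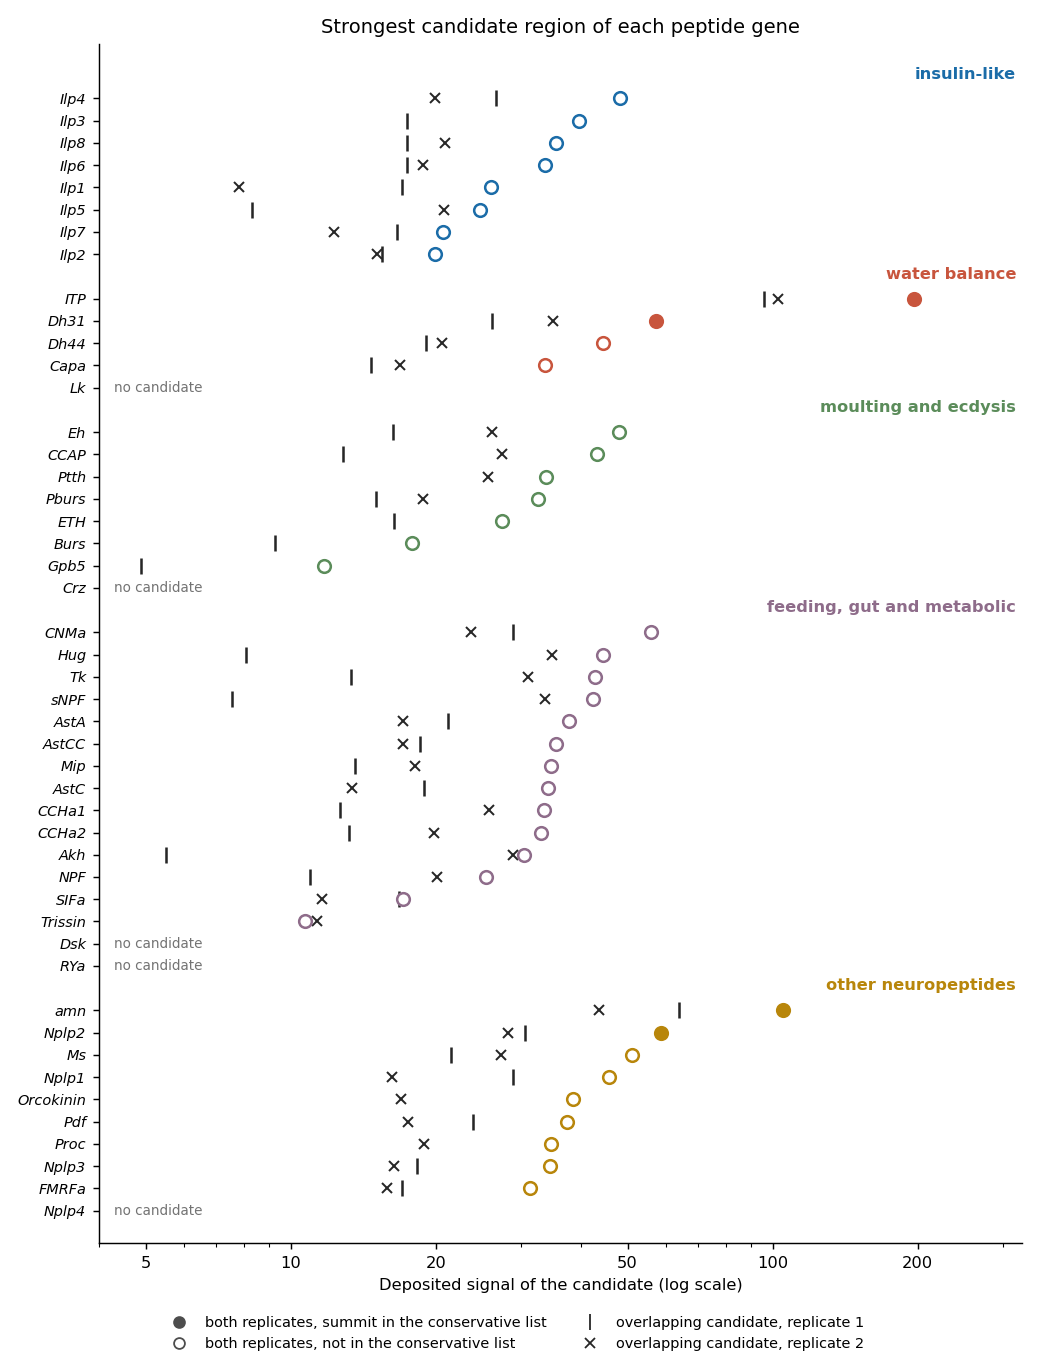
Signal of the strongest candidate of each peptide gene (x, log scale), in 5 role groups and ordered by signal within each. Circles are the ranked list of both replicates (filled, with a summit in the conservative list), and ticks and crosses are the candidates of replicate 1 and replicate 2 that overlap the circle's candidate; ITP at 197 and amn at 105 stand to the right of all others, and 5 genes have no candidate.

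The 8 insulin-like peptide genes (Ilp1 to Ilp8), most of which act on growth and metabolism through the insulin receptor, had no summit in any thresholded list. At the conservative share of genes of like span length, 5.29%, 0.423 of the 8 would have one, so 0 is near the background. Their median strongest signal was 29.9, against 24.5 at like span length, and 6 of the 8 were above the median of their class. Ilp4, an insulin-like gene of the embryonic midgut and mesoderm, was highest at 48.2 (rank 3260 of the candidates, −log10 IDR 1.19), with 26.7 in replicate 1 and 19.9 in replicate 2. Only 5.80% of genes of like length had a stronger candidate. Ilp2, a hormone of the insulin-producing brain cells, was lowest at 19.9 (rank 60499), with 15.5 in replicate 1 and 15.1 in replicate 2. That candidate has its summit inside the span of the neighbouring Ilp1 and in the upstream kilobase of Ilp2, and it was the only candidate in the territories of 2 of these genes. Ilp6, an insulin-like hormone of the fat body, had a conservative region outside the span (X, 2329386 to 2329689, signal 105), 2870 bp downstream of the nearest Ilp6 start and in both replicates' own lists. The closest start to it was that of a noncoding RNA, lncRNA:CR33218, at 621 bp.

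The 5 hormones of water and ion balance had the highest group median, 44.5 against 38.6 at like span length, and include ITP and Dh31. Their spans are long, with a median of 12525 bp, against 1503 bp over the 47 genes. Dh44, a hormone related to corticotropin-releasing factor, had 44.5 (rank 4434) in an intron 147 bp from a Dh44 start, with 19.1 in replicate 1 and 20.6 in replicate 2. Capa, the precursor of the CAPA peptides that act on the renal tubules, had 33.7. Lk, leucokinin, a diuretic peptide, had no candidate.

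The 8 genes of moulting and ecdysis, the shedding of the old cuticle, had no summit in any thresholded list. The conservative share at like span length was 5.38%, or 0.430 of 8 genes, so 0 is near the background here too. Their median was 30.0, against 24.5 at like span length. Eh, eclosion hormone, was highest at 48.1 (rank 3280), 3 bp upstream of its start, with 16.3 in replicate 1 and 26.1 in replicate 2. CCAP, the crustacean cardioactive peptide that acts in the ecdysis motor programme, followed at 43.2, with 12.8 in replicate 1 and 27.4 in replicate 2. That summit lay 244 bp from the CCAP start and 167 bp from that of CG6972. The subunits of the cuticle-tanning hormone bursicon differed, with 32.6 at Pburs and 17.9 (rank 70773) at Burs. The overlapping candidate at Burs had 9.29 in replicate 1, and there was none in replicate 2. Gpb5, the beta subunit of a glycoprotein hormone, was among the lowest of all at 11.7 (rank 102211), with 4.89 in replicate 1 and none in replicate 2. Crz, corazonin, had no candidate. ETH, the ecdysis triggering hormone of the Inka cells, had 27.5 within its span and upstream kilobase. A conservative region outside that territory (2R, 24793502 to 24793805, signal 136, in both replicates' own lists) lay 1828 bp downstream of the ETH start, and 153 bp from the start of the antisense RNA asRNA:CR43257.

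The 16 genes of feeding, gut and metabolic peptides also had no summit in any thresholded list, where the conservative share at like span length, 10.8%, amounts to 1.73 of 16 genes. Their median was 33.9, against 32.9 at like span length, and 8 of the 16 were above the median of their class. CNMa, the precursor of CNMamide, came nearest to the list, with 55.8 (rank 2090, −log10 IDR 1.70) in a coding exon, and 29.0 in replicate 1 and 23.6 in replicate 2. Its signal was above the lowest of the conservative list, 24.3, as was the median strongest signal of all protein-coding genes, 30.5. The list is not a cut by signal, and all of its peaks reach a −log10 IDR of 2. Not every candidate that reaches it is listed. On the main chromosomes 1848 candidates did, against 1770 listed peaks. Hug, the precursor of a pyrokinin that acts on feeding, had 44.5 (rank 4397, −log10 IDR 0.13), Tk, tachykinin, 42.8, and sNPF, short neuropeptide F, 42.4. The gene sNPF is the longest of the 47 at 28459 bp and had 35 candidates, of which none reached the conservative list. The lowest were Trissin, a cysteine-rich peptide gene, at 10.7 (rank 107210), and SIFa, the gene of SIFamide, at 17.1 (rank 74742). At Trissin there was no overlapping candidate in replicate 1 and one of 11.3 in replicate 2. At SIFa they had 16.8 in replicate 1 and 11.6 in replicate 2. Dsk, a cholecystokinin-like peptide gene, and RYa, the RYamide gene, had no candidate. AstA, an allatostatin of brain and gut, had 37.9 within its territory. A conservative region 3938 bp upstream of it (3R, 24768857 to 24769160, signal 165) lay 342 bp from the start of CG13631 and was in replicate 2's own list but not in replicate 1's.

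The 10 other neuropeptide genes include amn and Nplp2 and had a median of 38.0, against 29.0 at like span length. Ms, the precursor of myosuppressin, which slows visceral muscle, had 51.2 (rank 2675, −log10 IDR 1.53) with its summit 72 bp upstream of the start, and 21.5 in replicate 1 and 27.3 in replicate 2. Nplp1, another neuropeptide-like precursor, had 45.7 (rank 3964), with 29.0 in replicate 1 and 16.2 in replicate 2. Pdf, the pigment-dispersing factor of the clock neurons, had 37.5, 56 bp upstream of its start. FMRFa, the precursor of the FMRFamides of the Tv neurons, had 31.4, the lowest of this group with a candidate. Nplp4 had no candidate in the ranked list of both replicates, and 2 in replicate 1's own, the stronger at 12.4.

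In all, 5 genes had no candidate (Crz, Dsk, Lk, Nplp4 and RYa), which is 10.6% of the 47, against 15.4% of all protein-coding genes and 18.0% at like span length. Except for Nplp4, they had none in either replicate's own ranked list. All 5 are short, and candidates were missing most often from short genes. The peptide genes had a median of 1.24 candidates per kb of territory, against 1.08 at like span length. Of the 266 distinct candidates in their territories, 5 reached a −log10 IDR of 2 (1.88%), near the 1.32% of all candidates.

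**Figure D3:**
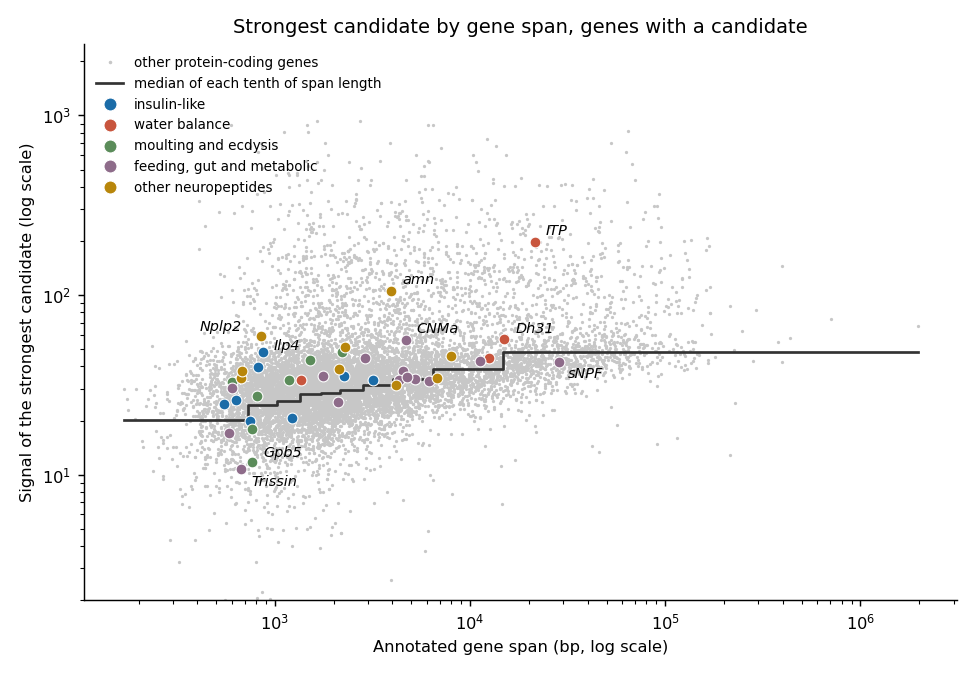
Signal of the strongest candidate (y, log scale) by annotated gene span in bp (x, log scale), for genes with a candidate. Coloured points are the peptide genes by role, grey points the other protein-coding genes, and the line is the median of each of 10 classes of span length with genes without a candidate at 0; most coloured points lie near or above the line, with ITP and amn far above and Trissin and Gpb5 below it.

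Peptide genes are short, with a median span of 1503 bp, against 2164.5 bp over all protein-coding genes, and summits were rarer in short genes. In the shortest of the 10 length classes (168 to 725 bp) there were 12 peptide genes, with a summit in 0 of them and in 2.22% of all genes of that class. In the next class there were 8, with a summit in 1 (Nplp2), against 4.37%. In the longest class there were 3, of which ITP and Dh31 had a summit and sNPF did not, against 32.5% of all genes. Seen from the start sites, the median distance from a peptide gene to the nearest conservative summit was 39159 bp, against 22216.5 bp at like span length and 22109 bp over all genes. Within 5 kb of a start, on either side, 6 of the 47 (12.8%) had a conservative summit, against 18.8% of all genes and 17.2% at like span length. These were ITP, amn, Nplp2, AstA, ETH and Ilp6. The farthest were RYa, 2405511 bp from any summit, and Gpb5, at 904423 bp.

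The replicates were then compared at the peptide genes, each in its own ranked list. In replicate 1, 40 had a candidate, in replicate 2 it was 39, and 36 had one in both. With genes without a candidate at 0, median strongest signals over the 47 genes were 16.9 in replicate 1 and 18.8 in replicate 2. Of the 36 genes, 17 (47.2%) had their strongest summits within 150 bp of each other in the replicates, against 36.3% of all protein-coding genes and 37.6% at like span length. Spearman's rho between the replicates' strongest signals was 0.26 over the 36 genes and 0.13 over the 34 left without ITP and amn. Over protein-coding genes it was 0.59 for all 11023, and 0.47 for the 10163 left without those that, like ITP and amn, had a summit in both replicates' own lists, neither at like span length. Genes share libraries and depth, so these are descriptions with no p.

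**Figure D4:**
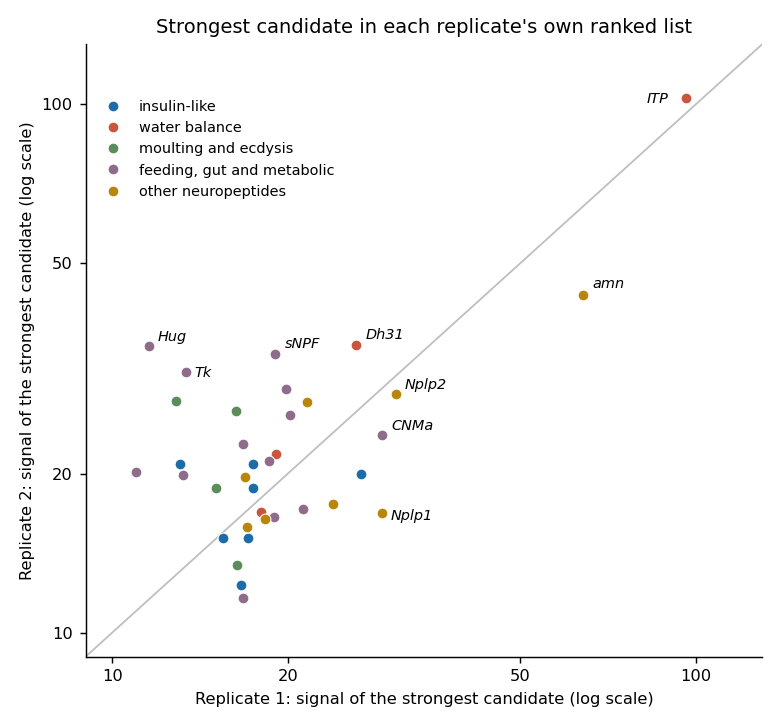
Signal of the strongest candidate of each of the 36 peptide genes with a candidate in both replicates' own ranked lists, replicate 1 (x) against replicate 2 (y), both on log scales, with the line of equal values. ITP and amn stand at the upper right, and the rest form a cloud under 40 in both, with Hug, Tk and sNPF well above the line.

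Several genes were candidates of replicate 2 more than of replicate 1. For 8 of the 42 genes with a candidate (19.0%), the strongest candidate overlapped one within the first 5000 of replicate 2, but only one beyond the first 20000 or none in replicate 1. The share over all 11823 genes with a candidate was 5.06%. The reverse held for 2 (4.76%), Nplp1 and Pdf, against 5.08%. These limits were chosen after the values had been seen. The 8 were Akh, CCAP, CCHa1, Eh, Hug, Ptth, sNPF and Tk. At Hug the overlapping candidates had 8.08 in replicate 1 and 34.9 in replicate 2, ranks 74960 and 1637. At sNPF they had 7.57 in replicate 1 and 33.7 in replicate 2, ranks 78543 and 1788. Akh, the glucagon-like adipokinetic hormone, had 5.50 in replicate 1 and 28.9 in replicate 2, and Ptth, the prothoracicotropic hormone of metamorphosis, had none in replicate 1 and 25.6 in replicate 2. None of these 8 was in replicate 2's own thresholded list.

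The strongest candidates of the peptide genes differed in base composition and place from the regions that passed the threshold. Their median GC content within 50 bp on either side of the summit was 54.0% (42 candidates), against 49.5% for the strongest candidates of all protein-coding genes (11823) and 31.7% for the conservative regions (1739). In coding exons, of any gene, lay 20 of the 42 (47.6%), against 50.4% of those of all protein-coding genes and 2.01% of the conservative regions. Within 500 bp of any start lay 21 (50%), against 46.5% and 43.4%. With genes that had a conservative summit left out on both sides, the median GC content was 54.5% over 38 peptide genes, against 51.5% over 10265 protein-coding genes. The share in coding exons was then 50% against 57.7%, and the share within 500 bp of a start was 50% against 43.5%. Among the members with a listed region, amn (36.6%) and Nplp2 (38.6%) had GC contents nearer to those of the conservative regions, while ITP (53.5%) and Dh31 (56.4%) were higher in GC than 94.3% and 96.4% of them. The part of base composition in the low-ranked candidates was not tested.

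**Figure D5:**
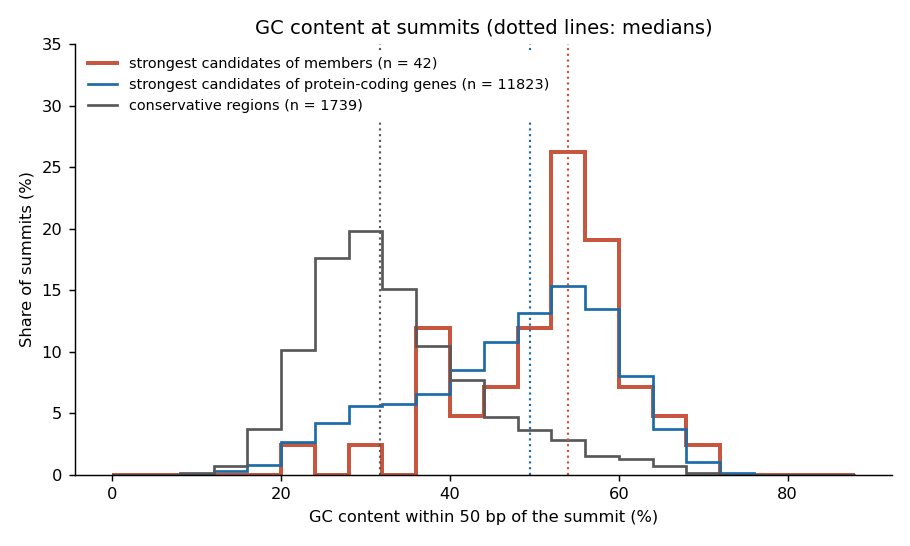
Share of summits in percent (y) by GC content within 50 bp on either side of the summit (x, in percent), for the strongest candidates of the 42 peptide genes with one (red), those of 11823 protein-coding genes (blue) and the 1739 conservative regions (grey), with dotted lines at the medians. The red and blue outlines peak at over 50% GC, with medians of 54.0% and 49.5%, and the grey one peaks near its median of 31.7%.

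The promoters of the peptide genes, taken as 250 bp before to 50 bp after the start, were searched for E-boxes on both strands. CATATG, which is also a CANNTG match, was in 3 of 47 (6.38%; Akh, Ilp3 and Trissin), against 7.83% of all protein-coding genes. In 1000 bp before to 50 bp after the start it was in 13 (27.7%), against 26.1%. Any CANNTG was in 44 of the 47 promoters (93.6%), against 77.3% of all genes, and in the 1000 bp window in 100% against 99.2%. The median GC content of the peptide promoters was also higher, 47.8% against 37.9%, and shares at like GC were not computed. Of the 5 conservative regions at peptide genes, 3 (60%) held a CANNTG within 50 bp of the summit, against 33.2% of all 1739 regions. The 3 were the stronger ITP region and those of amn and Nplp2. The second ITP region and that of Dh31 held none. CATATG was in 0 of the 5, against 3.91%. A match of letters does not show a site in use, and its absence says only that these letters are not in the window.

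Genes that act downstream and upstream of the peptides were read in the same way. Of 40 genes for neuropeptide and insulin-like receptors, 3 had a conservative summit (7.5%, Wilson interval 2.58 to 19.9%), against 26.0% at like span length. Receptor genes are long, with a median span of 17378 bp. The 3 were InR, the insulin receptor gene, with 183 in an intron 657 bp from a start (81.8 in replicate 1 and 111 in replicate 2), Dh31-R, the receptor of Dh31, with 104 at 195 bp upstream of its start, and CCHa2-R, the receptor of CCHamide-2, with 75.0 in an intron. The last 2 were in replicate 1's own list only, with 63.1 and 44.0. The median strongest signal was 39.3 over the receptor genes, against 48.4 at like span length. The longest length class runs from 14719 to 1965857 bp, so the length of many receptor genes was matched only roughly. In the class below it, 18.2% of genes had a conservative summit and the median strongest signal was 38.6. Among 7 genes that cut or amidate prohormones, 3 had a conservative summit (42.9%, Wilson interval 15.8 to 75.0%), against 19.3% at like span length. These were Pal1 (287) and amon (255) and Fur1 (171), a gene of peptide amidation and genes of a prohormone convertase and a furin, and all 3 were in both replicates' own lists. The stronger of the 2 conservative Fur1 summits lay 225 bp from a Fur1 start and 207 bp from that of Vps33B. With 7 genes the interval of that share includes the background.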

How the data were processed

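ChIP-seq was done on 2 biological replicates of dimm-GFP embryos, per the labels. The authors deposited peak lists on build dm6, per the file headers. Each peak carries a signal value that the authors deposited, and ranked lists also carry the −log10 of the IDR that the authors deposited. The aligner, peak caller, normalization and control used were not given in the sources used here. The deposited lists give no read totals, so depth and the precision it allows are unknown.

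Of the 8 lists, 7 were used. The ranked list behind the conservative list was the one whose candidates of −log10 IDR of at least 2 included all conservative peaks (0 missing, against 200 in the other). Peaks on 7 main chromosomes were kept, 1770 of 1807 in the conservative list, and peaks of a thresholded list overlapping by at least 1 bp were merged, keeping the strongest summit. This left 1739 conservative regions, 1176 in replicate 1 and 1114 in replicate 2. Genes came from Ensembl release 115, whose 30618 start codons read ATG in 99.8% of cases in the Release 6 genome of RefSeq. A gene was counted when a summit lay in its span or 1 kb upstream. Genes of like span length are those in the same of 10 classes of length, weighted as the members are.

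The members, lists and comparisons were chosen with earlier results of these data known. In full are given genes with a summit in any thresholded list, the 10 highest and 5 lowest strongest candidates, genes without a candidate, and receptor and processing genes with a conservative summit. Other genes are named as examples of their role group, for a summit within 5 kb of a start, or for a replicate difference or motif, chosen after their values were seen. With 1 group, no test was made. The counting steps were tested on simulated data. Python 3.11.15, numpy 2.4.6, pandas 2.3.3, scipy 1.17.1 and matplotlib 3.10.9 were used.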

Additional observations from a re-analysis of the deposited data

How the results depend on the processing

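Of 58 alternatives, 37 left their result within the limits set (1.5 times for counts, the SD between the replicates for the median) and 21 moved it; the cause was not tested. The conservative count of 4 peptide genes became 2 within 500 bp of an own start (Nplp2 and amn), 2 in the stronger 50% of regions, 2 at a −log10 IDR of at least 3, and 2 to 2 in the replicates' own lists, each time without 1 replicate (ITP and amn in these last cases). The receptor count of 3 became 1 within 500 bp, 1 at a −log10 IDR of at least 3, and 1 to 3 in the replicates' own lists. The count of 2 in replicate 1, in replicate 2 and in both became 1 within 500 bp, and in replicate 2 and in both 1 in the stronger 50%. The median signal of 34.2 became 39.8 with 5 kb upstream, 20.6 within 500 bp, and 16.9 to 18.8 in single replicates, whose signals have another scale. The 4 genes in the top 10% of their length class became 10 in the span alone, without Ilp4 and Nplp2, and 8 with candidates nearest to an own start. The 3 promoters with CATATG became 13 with 1000 bp, and 0 of the 5 summit windows held it. The count of 3 processing genes ranged from 2 to 4 over its 9 alternatives. No paired analysis was possible because the series has 1 group. The depth of the libraries is unknown and no control was used here, so whether a region depends on dimm was not tested, and a gene without a region was not detected at this threshold in whole embryos, which does not show that it is unbound.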
